A study of Triticum aestivum with 8 samples.

Results

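Cold acclimation of crowns was measured in the freeze-susceptible winter wheat line by setting 2 arrays of cold-acclimated plants (FS CA) against 2 arrays of non-acclimated plants (FS NT), 4 arrays of the 8 in the series. The members were defined by their labels, and every probe set other than the controls was described, 61115 in all. The FS line SD16169 and its freeze-resistant counterpart SD16029 (FR) are both mutants obtained by azide treatment of the winter cultivar Winoka, so that FS and FR are compared with each other and not with unmutated Winoka. FS NT crowns were cut from greenhouse plants kept at 22 to 28°C (the deposited design gives 25°C) under a 14 h photoperiod, at the 3rd to 4th leaf stage. FS CA crowns came from plants moved at that stage from the greenhouse to a 4°C chamber and kept there for 4 weeks, so that they were also 4 weeks older. The photoperiod is stated for the greenhouse only, and the light in the chamber is not given. Cold, age and the change of growing place, with any change of light, cannot be told apart in this design. The FR groups had the same treatments. They serve here for comparison, and their arrays also enter the estimate of spread behind every FS p-value and interval. RNA of 3 biological replicates was pooled for every array, and the arrays of one group are technical replicates in the study's wording. Every p-value below therefore measures only the spread between arrays.

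The crown is the short stem base just above the roots, and it holds the meristems from which a winter cereal regrows in spring. During weeks of low but non-freezing temperature, cold acclimation lets such plants survive later frost. It is known to involve dehydrins and other late embryogenesis abundant (LEA) proteins, soluble sugars and fructans, changed membranes and walls, and slowed growth. The Cbf transcription factors and the Cor/Lea genes they control are the best-known branch of this response. The account below covers all probe sets, and the genes it names lie beyond those that the study reported.

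Values are log2 signals, in which 1 unit is a doubling, and a level is the signal of a probe set, which depends on how its probes bind. Levels of different genes are therefore not amounts of transcript that can be ranked. The lowest signal, 2.15, is a floor held by 33.8% to 34.9% of the probe sets on an array, and 15755 probe sets were at the floor on all 8 arrays. The medians of the 8 arrays averaged 2.90, and signals under that level were read as not measured. Arrays of the same group correlated at 0.995 to 0.997, and FS NT with FS CA arrays at 0.910 to 0.914. The poly-A spike-ins, foreign RNAs added in a set amount, read 0.70 higher on the FS CA than on the FS NT arrays (36 probe sets), and the hybridization controls, added later in the procedure, read 0.68 higher, while the array medians were 0.07 lower. A change in total signal per unit of spike-in is thus not settled by these data, and the part of this shift in the results below was not tested beyond the alternative scaling given beside them. The number of arrays limits the precision.

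The tissue was checked against markers named in the annotation. The aluminium-activated malate transporter ALMT1, known from roots, read 2.16 to 2.24 on the 4 FS arrays, under the array median. Of the 27 probe sets of 15 seed protein genes, 24 were under the median on all 4 FS arrays. So were 28525 of all 61115 tested probe sets, so that the ALMT1 probe set alone says little about root tissue. Of the photosynthesis probe sets 23 of 36 were under the median on all 4 FS arrays, but some read high, although the study took only the non-photosynthetic region and no leaf. The brightest were of rbcL, at 16.17 to 16.87. The summed signal of the 36 probe sets (6 genes) was, in log2, 18.18 and 17.85 in FS NT and 17.48 and 17.50 in FS CA. In bulk tissue, fewer cells of a type and less RNA per cell cannot be told apart, which applies to every gene described here.

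In FS crowns, 18419 of the 61115 probe sets (30.1%) changed with cold acclimation, of which 10010 (16.4% of all) were up-regulated and 8409 (13.8%) down-regulated. Calls were made at a limma adjusted p under 0.05, adjusted over all 61115 probe sets, and 21549 had an unadjusted p under 0.05. The calls include 239 probe sets under the array median in both FS groups, and the smallest called log2 change was 0.0019 in size. In each of the 18419 both FS CA arrays lay beyond both FS NT arrays, which was so for 28550 (46.7%) of all probe sets. Falls were larger than rises. The median log2 change of the up-regulated probe sets was 1.51 (quartiles 0.95 to 2.27) and that of the down-regulated ones -1.84 (quartiles -3.13 to -1.07). Relative to the spike-ins, and among the 31168 probe sets with a mean above the median, 5119 were higher and 12786 lower, so that 28.6% of calls were rises against 54.3% as deposited. The split also moved with arrays centred on their medians (78.7% rises) and with low values raised to the median (23.1%). Under centring, floor values move with their array.

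Changes of less than 1 log2 unit made up 2734 of the rises and 1881 of the falls. Changes of 1 to 2 units made up 4062 and 2673, and those of 2 to 4 units 2611 and 2504. Changes of 4 units or more were seen in 603 rises and 1351 falls. The larger the rise, the lower was the level from which it started, with a median FS NT level of 9.31 for rises under 1 unit, 8.14 for 1 to 2, 6.55 for 2 to 4 and 4.08 for 4 or more. Falls showed no such order, and their median FS NT level lay between 8.98 and 10.09 in the 4 size classes. Rises of 4 units or more ended at a median FS CA level of 10.60, and falls of that size at 3.93. A fall cannot exceed the distance from its starting level to the floor, nor a rise the distance to the top of the scale, and both limits show as straight edges in the plot of change by level.

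**Figure D1:**
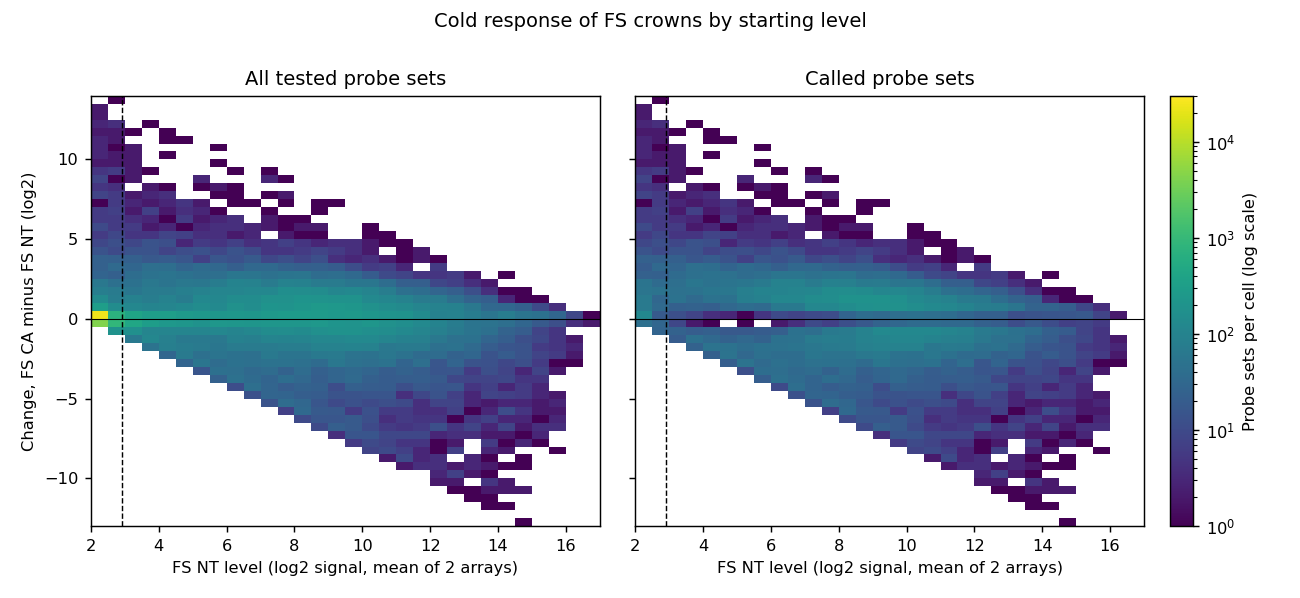
Change in FS crowns (FS CA minus FS NT, log2) by FS NT level (log2 signal, mean of 2 arrays), as the number of probe sets in cells of 0.5 log2 units, for all 61115 tested probe sets (left) and the 18419 called ones (right). The dashed line is the mean array median, 2.90, and the colour scale is logarithmic. Rises reach furthest at low levels and falls at high levels, along the edges set by the top and the floor of the scale.

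Response was next read by starting level. Under the array median, 30413 probe sets gave 2.62% rises and 0.286% falls. From the median to 5 (5902 probe sets) 23.0% rose and 7.63% fell, and from 5 to 8 (9395 probe sets) 31.9% rose and 20.5% fell. From 8 to 11 (10313 probe sets) rises and falls were nearly balanced, at 34.7% and 33.7%. At 11 and over (5092 probe sets) 25.3% rose and 48.4% fell, and the median change of the class was -0.37. Falls were thus 9.85%, 24.9%, 39.2%, 49.3% and 65.7% of the calls from the lowest to the highest class. Of the 603 rises of 4 units or more, 175 started under the median and 4 at 11 or over. Of the 1351 falls of that size, 223 started from 5 to 8, 631 from 8 to 11 and 497 at 11 or over. The spread was smaller at high levels, where the median standard error of the change was 0.11, than from the median to 5, where it was 0.24, so that smaller changes could be called there.

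The FS NT arrays enter both the level and the change, so the classes were also taken from the FR NT arrays, which enter no FS difference. At 11 and over, 25.2% then rose and 48.4% fell. With the mean of FS NT and FS CA as the level, the tilt towards falls was gone, and 40.9% rose and 30.9% fell at 11 and over. With the FS CA level, which was added once the data had been seen, 56.7% rose and 17.4% fell there. The tilt is therefore a statement about where probe sets started, and its mirror image appeared when probe sets were sorted by where they ended. Relative to the spike-ins and above the median, the share of calls that were falls again grew with the FS NT level, from 57.0% between the median and 5 to 91.2% at 11 and over.

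**Figure D2:**
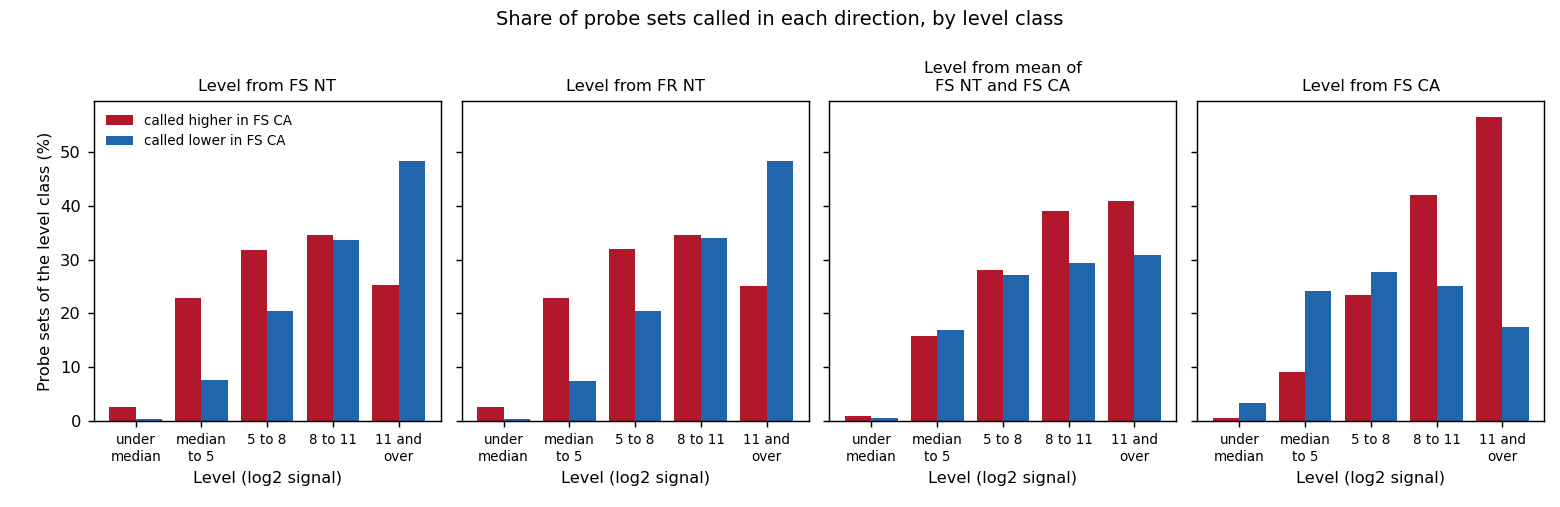
Share of probe sets (%) called higher (red) and lower (blue) in FS CA against FS NT in 5 classes of level (log2 signal), with the level taken from FS NT, from FR NT, from the mean of FS NT and FS CA, or from FS CA. At 11 and over, falls lead with the level of either NT group (48.4%), and rises lead with the mean (40.9%) and with the FS CA level (56.7%).

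Most probe sets stayed in their class. Of those under the median in FS NT, 29199 (96.0%) stayed there in FS CA, and of those at 11 and over 3446 (67.7%) stayed. At the extremes, 45 probe sets (0.148% of those under the median) went from under the median to 11 or over. In the other direction, 39 (0.766% of those at 11 or over) went to under the median. All of them were called. The counts were alike, and the shares differ because the 2 classes hold 30413 and 5092 probe sets. The strongest changes were in probe sets with no usable gene name. This group was not screened for the study's own Cbf, Vrn and Cor/Lea genes. Ta.2638.1.S1_at read 2.51 and 2.85 in FS NT and 16.46 and 16.51 in FS CA, and Ta.2787.1.S1_at read 2.23 on both FS NT arrays and 15.42 and 15.37 in FS CA. TaAffx.79227.1.S1_at read 14.89 and 14.55 in FS NT and the floor, 2.15, on both FS CA arrays. Ta.9671.3.S1_a_at read 14.51 and 14.13 in FS NT and 2.50 on both FS CA arrays. These 4 probe sets went nearly across the measured range. They were taken from calls whose groups did not overlap, as was so for every call.

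Genes could be named for a small share of the array. A gene symbol stands beside 1273 probe sets (771 symbols) and none beside 59842, and a name that tells a role could be had for 199 probe sets of 101 genes after the study's own Cbf, Vrn and Cor/Lea genes were left out. Of these 199, 35 (17.6%) were up-regulated and 60 (30.2%) down-regulated, against 16.4% and 13.8% of all probe sets, and 68 were under the median on all 4 FS arrays. Probe sets with a symbol were in any case called more often (52.1%) than those without (29.7%), and more of them were at or over the median in FS NT (73.8% against 49.7%). Wheat carries 3 similar copies of most genes, and probe sets ending in x_at, s_at or a_at can bind several related transcripts, so that a value below belongs to a gene together with its near-identical copies.

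**Figure D3:**
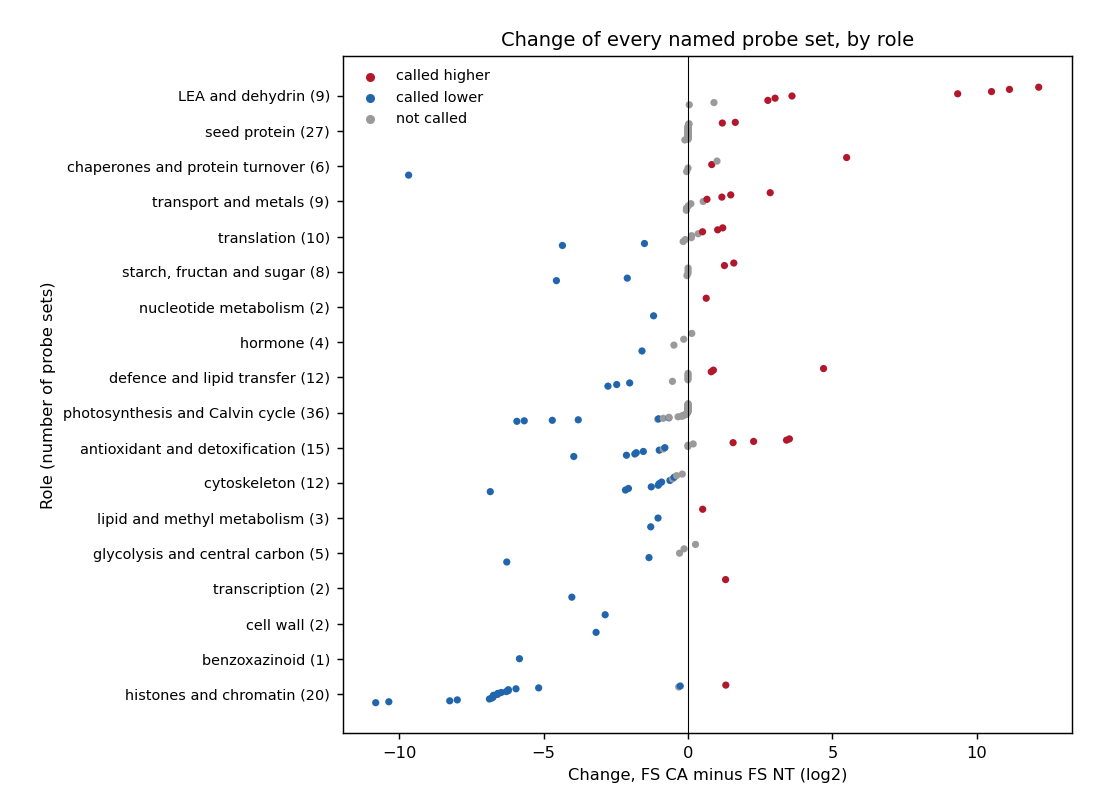
Change (FS CA minus FS NT, log2) of each named probe set, one point each, grouped by role with the number of probe sets in parentheses. LEA and dehydrin probe sets lie at or right of 0 and reach 12.14, while 17 of the 20 histone and chromatin probe sets lie at or under -5.17.

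LEA proteins and dehydrins, hydrophilic proteins that accumulate in drying seeds and in cells short of water, held the largest rises among named genes. All 4 named genes had at least 1 up-regulated probe set (7 of 9 probe sets, against 16.4% of all, and none down-regulated). The median change of the 9 was 3.60 against 0.00 over all tested probe sets. The dehydrin gene Rab15 read 2.58 on both FS NT arrays and 14.66 and 14.78 in FS CA (TaAffx.46097.2.S1_at). The NT readings lay under the array median, and the rise was at least 3540-fold when they were raised to that median (log2 change as read 12.14, 95% interval 11.73 to 12.55, limma adjusted p = 1.35e-05). Here and below, such a fold allows for readings under the median only, and not for the spread between arrays or for scaling. The other Rab15 probe sets rose by 11.13 on Ta.2704.1.S1_at, from FS NT readings of 3.54 and 5.50, and by 9.34 on Ta.2704.1.S1_x_at, from 6.45 and 6.37. With 1 array left out the former ran from 10.15 to 12.11. LEA1 (Ta.23797.1.S1_x_at) read 2.43 and 2.41 in FS NT and 12.95 and 12.90 in FS CA, a rise of at least 1022-fold by the same reckoning (limma adjusted p = 5.21e-06). On TaAffx.46097.2.S1_at for Rab15 and on the LEA1 probe set, signals went from near the floor to bright, while the other Rab15 probe sets started above the median. EM and EMH2, genes of the Em proteins first known from wheat embryos, rose less. EMH2 (Ta.25025.1.S1_at) went from 3.22 and 2.46 to 6.52 and 6.36, at least 10.4-fold (limma adjusted p = 0.00864). EM (Ta.2798.1.S1_s_at) went from 2.25 and 2.18 to 4.71 and 5.25, at least 4.15-fold (limma adjusted p = 0.000548). As with every call, the NT and CA arrays of these probe sets did not overlap.

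Histone genes, which dividing cells use to package newly copied DNA, showed the deepest fall of any group of named genes. Of the 20 probe sets of histones and the chromatin protein Hmgb3, 18 were down-regulated and 1 up-regulated, against 13.8% and 16.4% of all probe sets. The median change of the 20 was -6.59. The H2A gene wcH2A-9 (Ta.27657.12.S1_at) read 14.16 and 13.96 in FS NT and 2.82 and 3.66 in FS CA, a log2 change of -10.82 (95% interval -11.60 to -10.03, limma adjusted p = 6.3e-05). The H2B gene wcH2B-8 (Ta.7378.1.S1_at) read 14.25 and 14.49 in FS NT and 4.02 and 4.00 in FS CA, a 1315-fold fall (log2 change -10.36, limma adjusted p = 7.58e-06). These 2 probe sets stood near the top of the range before cold acclimation and near its bottom after it. The other probe sets of the same genes fell by 5.96 to 8.25 and ended between 5.55 and 9.27 in FS CA. wcH2B-6 (Ta.27708.1.S1_x_at) fell from 14.38 and 14.79 to 8.48 and 8.10, and wcH2A-2 (Ta.29542.1.S1_x_at) from 10.71 and 11.38 to 4.86 and 4.29. wcH2A-3 was split, with a fall from 13.97 and 14.08 to 8.79 and 8.91 on Ta.27192.1.S1_at and a rise from 5.69 and 5.27 to 6.91 and 6.66 on Ta.27192.1.S1_s_at (log2 change 1.31, limma adjusted p = 0.0182). Hmgb3, a high-mobility-group protein, moved little (log2 change -0.27 on Ta.30768.3.S1_x_at, limma adjusted p = 0.00805, and 0.0518 without FS CA replicate 1). As a marker list of dividing tissue, the 18 core histone probe sets had a summed signal, in log2, of 18.49 and 18.65 in FS NT and of 11.95 and 11.98 in FS CA, and the part of a change in the number of dividing cells was not tested.

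Cytoskeleton genes also fell, though mostly by far less. Of their 12 probe sets 9 were down-regulated and none up-regulated, against 13.8% and 16.4% of all probe sets. The median change of the 12 was -0.96. The alpha-tubulin gene TUBA read 9.03 and 9.01 in FS NT and 2.19 and 2.15 in FS CA on Ta.723.1.S1_at, a fall of at least 71.4-fold (limma adjusted p = 4.43e-05), and 16.01, 15.91, 15.83 and 15.69 on Ta.812.1.S1_x_at (log2 change -0.20, limma adjusted p = 0.137). These probe sets of one symbol thus behaved differently, the second being near the top of the scale throughout. Among the beta-tubulins, tubb1 (Ta.212.1.S1_at) fell most, from 15.19 and 15.31 to 13.07 and 13.09, and tubb3 (Ta.2837.1.S1_s_at) fell by 1.03. Of the other beta-tubulins, Tubb4 fell by 0.63 and Tubb5 on 3 of its 4 probe sets, and tubb2 was not called (log2 change -0.40). The actin-binding profilin PRO1 fell by 2.06 on Ta.5057.1.S1_x_at.

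Genes of photosynthesis and the Calvin cycle that were measured fell or did not pass the test. None of 36 probe sets was up-regulated and 6 were down-regulated, a share near the 13.8% of all probe sets, and most of those under the median were of rbcL. Phosphoribulokinase, PRK (Ta.23158.1.S1_at), which regenerates the CO2 acceptor of the cycle, read 12.34 and 11.63 in FS NT and 5.82 and 6.30 in FS CA, a 60.8-fold fall (log2 change -5.93, 95% interval -6.82 to -5.03, limma adjusted p = 0.000346). Fructose bisphosphatase, FBP (Ta.439.1.S1_at), fell from 9.39 and 9.16 to 3.66 and 3.54. OEE2, a protein of the water-splitting complex, fell from 12.43 and 11.97 to 7.57 and 7.43 on TaAffx.120874.1.S1_x_at and by 3.80 on Ta.85.1.S1_at. These enzymes and OEE2 lost most of their signal. OEE1 of the same complex (Ta.841.1.S1_a_at) fell only from 14.71 and 14.52 to 13.61 and 13.58, and petC (Ta.861.1.S1_at), the Rieske protein of the cytochrome complex, by 0.66. The chloroplast-encoded large subunit of Rubisco, rbcL, read 16.24 to 16.87 in FS NT and 16.17 to 16.37 in FS CA on its brightest probe sets, which did not pass the test. In glycolysis, GAPN (Ta.511.1.S1_at), a non-phosphorylating glyceraldehyde phosphate dehydrogenase, read 9.84 and 8.31 in FS NT and 2.72 and 2.88 in FS CA. GAPN fell 74.0-fold with low values raised to the array median (limma adjusted p = 0.00363 as read). Its NT arrays stood apart, and the log2 change was -5.51 to -7.04 with 1 array left out. Phosphoglycerate kinase, Pgk-1, fell by 1.35 on Ta.2307.1.S1_at.

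Starch and fructan genes went both ways. Fructans are the soluble sugar polymers that wheat crowns store, and fructan exohydrolases take them apart. The exohydrolase gene 1-FEHw2 (Ta.199.1.S1_at) read 12.58 and 12.66 in FS NT and 10.45 and 10.59 in FS CA (log2 change -2.10, 95% interval -2.60 to -1.61, limma adjusted p = 0.00129). The exohydrolase gene 6-FEH moved the other way, from 5.15 and 4.88 to 6.35 and 6.19 on Ta.30950.1.A1_x_at (log2 change 1.26, limma adjusted p = 0.00219) and from 4.63 and 4.56 to 6.34 and 6.02 on Ta.9641.1.A1_a_at (log2 change 1.58, limma adjusted p = 0.0458). The last call was lost without any one of the 4 FS arrays (limma adjusted p = 0.116 to 0.184). Beta-amylase, BMY1 (Ta.3.1.S1_at), which releases maltose from starch, fell from 8.58 and 8.18 to 3.85 and 3.80, a 23.6-fold fall (limma adjusted p = 0.000442). The small subunit of ADP-glucose pyrophosphorylase, AGP-S (Ta.242.1.S1_at), the first committed step of starch synthesis, read 12.42 and 12.31 in FS NT and 12.34 and 12.31 in FS CA. Granule-bound starch synthase, GBSS-I, and the invertase IVR1 were at the floor.

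Protein repair and chaperone genes held both a strong rise and a strong fall. PIMT (Ta.162.1.S1_at), an isoaspartyl methyltransferase that repairs aged proteins, read 4.45 and 4.07 in FS NT and 9.77 and 9.74 in FS CA (log2 change 5.49, 95% interval 4.82 to 6.16, limma adjusted p = 0.000199). The small heat shock protein gene hsp16.9A (Ta.24332.1.S1_at) read 12.94 and 11.14 in FS NT and 2.36 on both FS CA arrays. With low values raised to the array median the fall was 580-fold (limma adjusted p = 0.000931 as read). The NT arrays of this heat-inducible gene stood apart, and with 1 array left out the log2 change was -8.77 to -10.58. The ubiquitin-conjugating enzymes UBC1/UBC2 rose by 0.82 on Ta.2711.1.S1_x_at, a call that was lost relative to the spike-ins (0.11).

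Antioxidant and detoxification genes were divided, with 4 probe sets up-regulated and 7 down-regulated out of 15, against 16.4% and 13.8% of all probe sets. The zeta-class glutathione transferase GSTZ1 rose on all 3 of its probe sets, most on Ta.237.1.S1_a_at, which read 8.37 and 8.49 in FS NT and 11.997 and 11.88 in FS CA (11.4-fold, limma adjusted p = 3.36e-05). PER1, a peroxiredoxin known from seeds, went from 2.98 and 2.76 to 4.31 and 4.55 on Ta.14503.1.S1_at, a call lost relative to the spike-ins (0.85), and its other probe set did not pass. Catalase, CAT1 (Ta.442.1.S1_at), which breaks down hydrogen peroxide, went the other way, from 9.68 and 8.91 to 5.28 and 5.39 (15.5-fold lower, limma adjusted p = 0.00167). The chloroplast thioredoxin Trx-M (Ta.136.1.S1_at) fell by 2.13, glyoxalase I, lgul, by 1.84 and 1.79 on its probe sets, and Prx1 by 0.80 to 1.55 on 3 of its 4 probe sets.

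**Figure D4:**
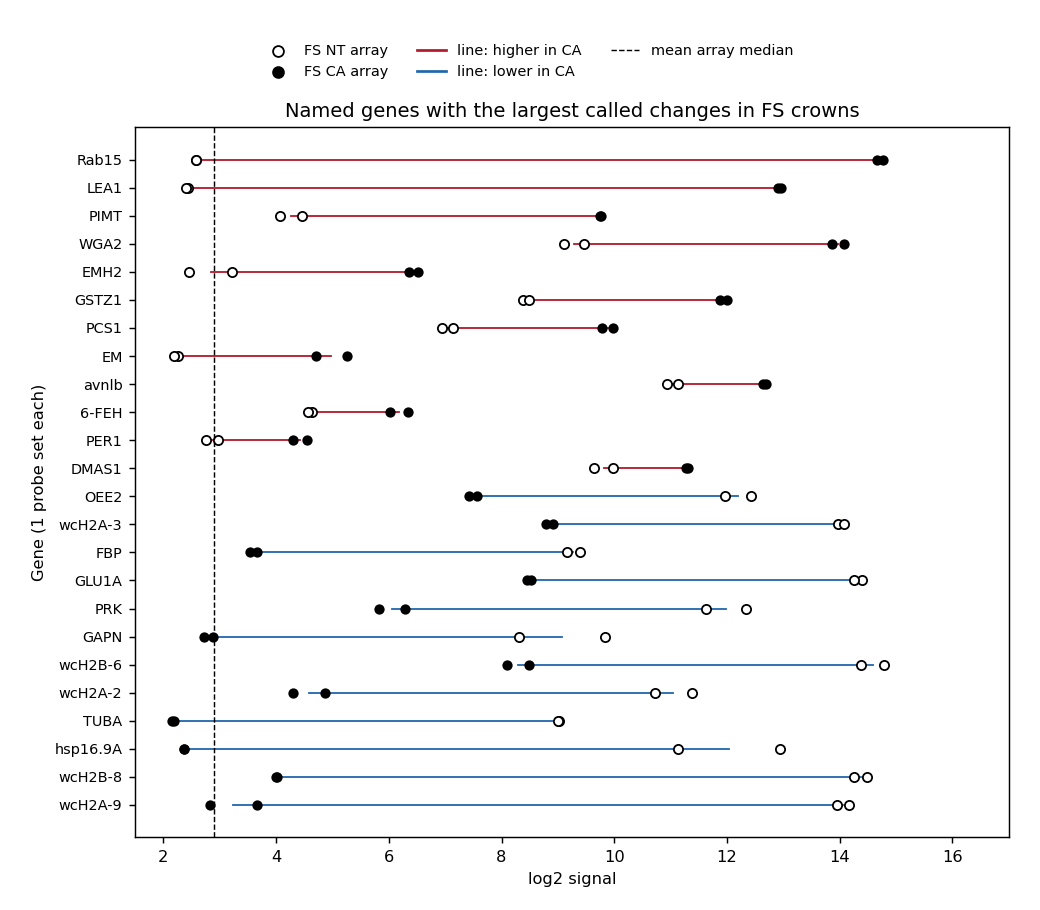
log2 signal on each FS NT array (open circles) and each FS CA array (filled circles) for the 12 up-regulated and the 12 down-regulated named genes with the largest called change, 1 probe set a gene, with a line joining the group means. The dashed line marks the mean array median, 2.90. Only calls whose NT and CA arrays did not overlap could enter. Of the 24 genes, 8 have a group mean under the median (Rab15, LEA1, EM, EMH2 and PER1 in FS NT, and hsp16.9A, TUBA and GAPN in FS CA).

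Defence genes went both ways, with 3 probe sets up-regulated, 3 down-regulated and 6 not called. Over all probe sets, 16.4% were up-regulated and 13.8% down-regulated. Both named wall genes fell. WGA2 (Ta.147.1.S1_at), a chitin-binding lectin, read 9.46 and 9.10 in FS NT and 13.87 and 14.07 in FS CA, a 25.8-fold rise (log2 change 4.69, 95% interval 3.94 to 5.44, limma adjusted p = 0.000408). The xylanase inhibitor XIP-I rose by 0.88 on Ta.1200.1.S1_x_at, a call that was lost relative to the spike-ins (0.17). The lipid transfer protein LTP3 fell from 14.97 and 14.57 to 12.05 and 11.93 on Ta.1282.1.S1_x_at, and the thaumatin-like protein PR5 (Ta.24501.1.S1_at) from 8.18 and 8.47 to 6.16 and 6.45. Both of these are classed as defence genes, as is WGA2, so that the group had no common direction. The largest fall in this area was that of GLU1A (Ta.4601.2.S1_at), a beta-glucosidase that frees the benzoxazinoid defence compounds of cereals from their stored form. It read 14.40 and 14.25 in FS NT and 8.45 and 8.52 in FS CA, a 57.2-fold fall (log2 change -5.84, 95% interval -6.04 to -5.63, limma adjusted p = 1.49e-05). Of the wall genes, XTH (Ta.30703.1.S1_at), which cuts and rejoins xyloglucan in growing walls, went from 11.94 and 11.77 to 8.62 and 8.72. COMT1 (Ta.336.1.S1_x_at), a methyltransferase of lignin synthesis, went from 14.18 and 14.24 to 11.23 and 11.44.

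Of 9 probe sets of transport and metal genes, 4 were up-regulated, against 16.4% of all probe sets, and none was down-regulated. Phytochelatin synthase, PCS1 (Ta.232.1.S1_at), which makes metal-binding peptides, read 6.94 and 7.14 in FS NT and 9.78 and 9.99 in FS CA, a 7.18-fold rise (limma adjusted p = 0.000214). DMAS1 (Ta.5335.3.S1_a_at), which makes the iron chelator deoxymugineic acid, went from 9.64 and 9.98 to 11.27 and 11.31. The vacuolar cation channel TPC1 (Ta.28747.1.S1_at) went from 8.82 and 8.84 to 10.19 and 9.81, and its call was lost relative to the spike-ins (0.47).

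Of 12 probe sets of transcription and translation genes, 4 were up-regulated and 3 down-regulated, against 16.4% and 13.8% of all probe sets. The falls were larger than the rises. The zinc-finger gene WZF1 (Ta.103.1.S1_at) read 10.81 and 11.38 in FS NT and 7.06 and 7.08 in FS CA, a 16.3-fold fall (log2 change -4.02, 95% interval -5.07 to -2.98, limma adjusted p = 0.00177). The TATA-binding protein TBP1 (Ta.15.1.S1_at) rose from 10.64 and 10.78 to 12.05 and 11.98. NCBP (TaAffx.63045.1.S1_at) and eIF4E (Ta.14707.1.S1_at), which bind the cap of messenger RNA, rose by 1.201 and 1.03. Ribosomal protein RPL9 (Ta.14183.1.S1_at) fell by 1.51. RPS29 fell from 10.32 and 10.11 to 5.86 and 5.88 on Ta.24254.3.S1_x_at, while its other probe set, Ta.30687.2.S1_x_at, read 4.81 and 4.87 in FS NT and 4.99 and 5.39 in FS CA and was not called. Relative to the spike-ins the rises of NCBP, TBP1 and eIF4E did not pass (0.50, 0.59 and 0.32).

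In methyl and nucleotide metabolism, adenosylhomocysteinase, SAHH, which clears the by-product of methylation reactions, fell by 1.29 on Ta.1258.2.S1_x_at. PEAMT1 (Ta.1842.1.S1_a_at), which methylates phosphoethanolamine on the way to choline, went from 13.19 and 13.08 to 13.66 and 13.63 (log2 change 0.51, limma adjusted p = 0.00942). That call was lost without FS NT replicate 2 or FS CA replicate 1, and relative to the spike-ins the change was -0.20. The adenine salvage enzyme APT1 (Ta.43.1.S1_at) rose by 0.63 as deposited and turned to -0.08 relative to the spike-ins, and adenylosuccinate synthase, AdSS (Ta.121.1.S1_at), fell by 1.19. Of the gibberellin 20-oxidases, GA20ox1B (Ta.23667.1.S1_at) went from 5.19 and 4.66 to 3.49 and 3.17 (log2 change -1.59, limma adjusted p = 0.0246), a call lost without FS NT replicate 1 (limma adjusted p = 0.108) and without either FS CA array, and GA20ox1A and GA20ox1D were not called. The avenin-like storage protein genes were the exception among seed proteins. avnlb rose from 10.93 and 11.13 to 12.63 and 12.70 on Ta.27777.1.S1_at, the only one of its 4 probe sets above the median. avnla read the floor in FS NT and 2.99 and 3.69 in FS CA on Ta.905.2.S1_at (limma adjusted p = 0.0178). This call was lost without either FS NT array and with values raised to the array median, where the change of 1.33-fold did not pass (limma adjusted p = 0.105).

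Among genes with an FS NT level of at least 11, the following had the 95% intervals that stayed nearest to no change. They were AGP-S, the plasma membrane proton pump ha1, the elongation factor TEF1, Hmgb3 and the prolyl isomerase FKBP70. That closeness was the rule of choice and is no separate result. ha1 (Ta.28364.1.S1_at) read 13.47 and 13.28 in FS NT and 13.39 and 13.38 in FS CA, a change of 0.01 (95% interval -0.19 to 0.21). TEF1 (Ta.659.2.S1_x_at) changed by 0.12 (95% interval -0.05 to 0.30), AGP-S by -0.04 (-0.16 to 0.09) and FKBP70 (Ta.28955.1.S1_at) by -0.05 (-0.36 to 0.26). Relative to the spike-ins these 4 changes were -0.70, -0.58, -0.74 and -0.75, of which those of ha1, AGP-S and FKBP70 passed the test, so that their steadiness holds on the deposited scale only.

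The FS response was then set beside that of FR crowns. Its changes come from other arrays, but the p-values of both lines use the spread over all arrays. In FR, 17687 probe sets (28.9%) were called. A response that differed between FS and FR was called for 66 probe sets (0.108%), 27 with a higher and 39 with a lower change in FS, and 2734 had an unadjusted p under 0.05. Of the 66, 37 were under the median in all 4 groups, and the sizes of the difference ran from 0.007 to 4.47 with a median of 0.48. This count was not stable. It was 15 with robust variances, 21 above the median only and 22 with a replicate block, and 888 to 1591 with 1 FS array left out. The largest difference was in a probe set with no gene name, TaAffx.71647.1.A1_at, singled out after its values were seen. It fell from 13.27 and 13.61 to 6.70 and 6.96 in FS and from 13.56 and 13.25 to 11.19 and 11.34 in FR (difference -4.47, 95% interval -5.15 to -3.79, limma adjusted p = 0.0312). Its NT arrays overlapped between the lines and its CA arrays did not.

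None of the 199 named probe sets was called in this difference (smallest limma adjusted p = 0.151, and 14 with an unadjusted p under 0.05). A missed threshold does not show that the lines responded alike, and several intervals were wide. For WZF1 the change was -4.02 in FS and -1.65 in FR, a difference of -2.37 (95% interval -3.85 to -0.90, limma adjusted p = 0.618). For GLU1A it was -5.84 and -4.90, a difference of -0.94 (-1.23 to -0.65, limma adjusted p = 0.151), and for LTP3 on Ta.1282.1.S1_x_at -2.77 and -1.98. EMH2 on Ta.25025.1.S1_x_at, whose FS NT arrays read above the median, changed by 3.01 in FS and 2.76 in FR, a difference of 0.25 (-0.54 to 1.052). On Ta.25025.1.S1_at, with an FS NT mean under the median, EMH2 changed by 3.60 in FS and 1.75 in FR. That difference was 1.85 (-0.25 to 3.96). EM on Ta.2798.1.S1_s_at, also under the median in FS NT, changed by 2.76 and 1.75, a difference of 1.01 (0.32 to 1.71, limma adjusted p = 0.719).

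**Figure D5:**
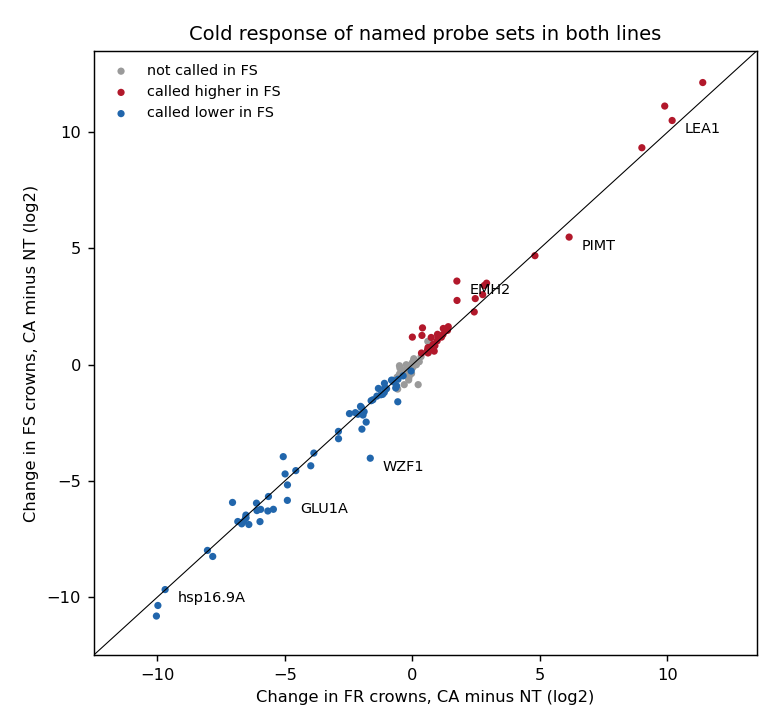
Change of each of the 199 named probe sets in FS crowns against its change in FR crowns (both CA minus NT, log2), coloured by the call in FS. The thin line marks equal change. Most points lie close to it, and WZF1 (-4.02 in FS and -1.65 in FR) is among those set off from it.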

How the data were processed

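Crown RNA was measured on Affymetrix wheat arrays. The authors corrected background and normalized with gcRMA in Bioconductor, which draws low signals towards a common floor, and deposited the result as log2 signals. RMA and GCRMA are named in the processing notes of the submitters. The table holds 61290 probe sets, of which 175 controls (111 AFFX and 64 RPTR) were left out of tests. Means of the 4 groups were fitted over the 8 arrays with limma 3.58.1 in R 4.3.3. Variances were moderated along an intensity trend, with 4 residual degrees of freedom and 0.623 from the prior. P-values were two-sided, adjusted by Benjamini-Hochberg over 61115 probe sets and called under 0.05. Intervals are 95% intervals of that model. A fold given as at least a value rests on signals raised to the array median, and is no bound on the spread between arrays or on scaling. The script was tested on simulated data. Tables and figures were made with Python 3.11.15 and matplotlib 3.10.9.

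Symbols come from the platform annotation, and 770 of 771 were matched to RefSeq, whose synonyms gave names. Roles were assigned by name alone. Outside the study's Cbf, Vrn and Cor/Lea genes, the rules took the 12 genes up and the 12 down with the largest called change. They also took the 2 in each direction in each class of starting level, and up to 4 in each role. AGA.1, Glc1, TSA and cys1, with no assigned role, changed by 1.19, -0.75, -0.68 and 0.74. They are not described above but count in the totals over alternatives. The 5 bright genes were those whose interval stayed nearest to no change. The 2 unnamed probe sets that rose and the 2 that fell most were taken without leaving out the study's genes. Non-overlap of the NT and CA arrays was a condition for all these picks, except for the genes by role and the bright genes. The largest difference between lines and further probe sets of named genes were added after their values were seen. Members follow from labels and roles from names, but comparison, members, lists and rules were chosen with earlier results of these data known. Alternatives were the arrays in the fit, variance moderation, a replicate block, filters, scaling, the level used for classes and single arrays left out.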

Additional observations from a re-analysis of the deposited data

Results flagged for a closer look

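The difference in response between FS and FR was called for 66 probe sets by limma's test of that difference. Of these, 40 were also called in FS, 43 in FR and 17 in both, 16 of the 17 in the same direction. Over all probe sets, 30.1% were called in FS and 28.9% in FR. The difference is built from the changes of both lines, so that this overlap is no separate result. Of the 66, 37 were under the median in all 4 groups.

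Control probe sets outside the comparison did not all move alike. The poly-A spike-ins were 0.70 and the hybridization controls 0.68 higher in FS CA than in FS NT. Of the wheat controls on the array, sucrose synthase was 0.90 higher at its 3′ end, read as 13.29 and 13.28 in FS NT and 14.25 and 14.12 in FS CA, and glucose-6-phosphate dehydrogenase was 0.77 higher. Ubiquitin was only 0.23 to 0.38 higher, and the change of CYP86 was -3.60 at its 3′ end and -1.88 in its middle. The actin probe set for the middle of the transcript read 3.62 and 3.27 in FS NT and 2.29 and 2.21, under the array median, in FS CA. The 18S rRNA control was 1.95 higher, at 5.51 and 4.95 in FS NT and 7.94 and 6.42 in FS CA, with the CA arrays far apart. The excess of 3′ over 5′ signal of sucrose synthase was 5.54 and 7.04 in FS NT and 5.55 and 6.38 in FS CA, so that the arrays numbered 2 had the larger excess in both groups. The part of RNA quality or of ribosomal RNA in the results was not tested.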

How the results depend on the processing

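P-values rest on 2 arrays a group from pooled RNA, and signals under the array median could not be read as levels. The count of 18419 (10010 up, 8409 down) was 48997 with values raised to the array median (37659 down), 43048 with arrays centred on their medians (33863 up), and 46613 relative to the spike-ins (5665 up, 40948 down), where floor values take the shift of their array. Above the median only, the spike-in scaling gave 5119 up and 12786 down. Fitted on the FS arrays only, so that FR arrays did not enter the spread, the count was 16236 (8849 up, 7387 down). With 1 FS array left out the totals were 16416 to 16724, with 8095 to 9615 up and 6801 to 8458 down.

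The difference between lines (66) was 15 with robust variances, 21 above the median only, 22 with a replicate block, 192 relative to the spike-ins and 888 to 1591 with 1 array left out, for which the cause was not tested. The deviations of same-numbered arrays correlated at 0.09 to 0.40 over the 6 pairs of groups, and with 2 pairs a comparison they were not taken as paired. The replicate block gave 9989 up and 8263 down in FS, and among named genes it ended the calls of 6-FEH Ta.9641.1.A1_a_at (limma adjusted p = 0.073) and GA20ox1B Ta.23667.1.S1_at (0.0565) and no other.

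By starting level, rises and falls under the median (796 and 87 as deposited) moved most. Rises were 22932 with centred arrays, 450 relative to the spike-ins above the median, 152 with FS CA levels, 244 with mean levels and 622 to 2237 with 1 array left out, the 2 highest, 2237 and 2130, without FS CA replicates 1 and 2. Falls were 27030 and 1 relative to the spike-ins without and with the filter, 28014 with values raised, 0 above the median only and for changes of at least 1, 1159 and 1043 with level and change from different FS NT arrays, 1005 with FS CA levels, 148 with mean levels and 92 to 1089 with 1 array left out, the 2 highest, 1089 and 968, without FS NT replicates 1 and 2. From the median to 5, falls (450) were 1817 and 1310 relative to the spike-ins, 722 with values raised, 1482 with FS CA levels, 1026 with mean levels and 254 to 498 with 1 array left out (254 and 290 without FS CA replicates 1 and 2), and rises (1355) were 554 with FS CA levels. From 5 to 8, relative to the spike-ins, rises (2994) were 1973 and 1788 and falls (1930) 3729 and 3450, and from 8 to 11 rises (3579) were 1724 and 1596. At 11 and over, rises (1286) were 338 and 297 relative to the spike-ins, 578 for changes of at least 1, 1935 with mean and 2977 with FS CA levels, and falls (2464) were 1461 and 914 with mean and FS CA levels.

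Of the 199 named probe sets, rises (35) numbered 87 after centring and 15 on the spike-in scale, with and without the filter, and falls (60) were 133 with values raised and 148 relative to the spike-ins. Over the named genes and alternatives, 799 values kept direction and call, 40 lost the call, 4 gained one and 13 turned. With centred arrays AGP-S turned to 0.0314 and FKBP70 to 0.0212. With 1 array left out AGP-S ranged from -0.0934 to 0.0165, FKBP70 from -0.1418 to 0.0446 and ha1 from -0.0857 to 0.102. Relative to the spike-ins, with and without the filter, APT1 turned to -0.0764, PEAMT1 to -0.1986, TEF1 to -0.5831 and ha1 to -0.6968.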
